A study of Drosophila melanogaster with 10 samples.

Results

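Larvae in which a mutation of the insulator protein Su(Hw) was added to a CTCF mutation differed from larvae with the CTCF mutation alone in 41.4% of the genes tested (edgeR adjusted p below 0.05). Transcripts for ribosomes, for mitochondrial respiration, for digestion of protein and for the cuticle were lower, and heat shock chaperones, maltases and spermatogenesis genes were higher. The comparison sets the 2 libraries of genotype dCTCFdeltaCPSuHwdelta114 (called the CTCF Su(Hw) mutant here) against the 2 libraries of genotype dCTCFdeltaCP (the CTCF mutant). These are 4 of the 10 libraries of the series, chosen by their titles and not by any measured value. Both groups share the dCTCFdeltaCP mutation, the strain y1w1118 and the source, RNA from whole third-instar larvae kept at 25 °C. The series also holds wild type, dCTCFdeltaCP with PitadeltaCP1 (the CTCF Pita mutant) and a genotype with the 3 mutations (the triple mutant), with 2 libraries each. No library carries the Su(Hw) mutation with intact CTCF, so its effect was measured on a mutant background only. The labels give no sex, batch, collection date or construct for the alleles, and do not say whether libraries of a group came from separate animals, so p-values measure the spread between libraries, which may be technical.

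Su(Hw), CTCF and Pita are zinc-finger proteins that bind DNA at insulators and at many promoters in Drosophila. Per the series' design text, the mutations change the domains through which they interact with CP190, a protein that binds many such sites through these partners and is needed for insulator function. Su(Hw) is best known from the gypsy retrotransposon, whose insulator it binds together with CP190 and Mod(mdg4), and it is also known as a repressor of neuronal genes outside the nervous system and as a factor of oogenesis.

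The CTCF libraries held 6253318 and 5670793 reads assigned to genes, and those with the added Su(Hw) mutation 8220126 and 8057426. Levels are given as CPM, counts scaled to a common library size adjusted with TMM factors, which were 0.553 and 0.698 for the former and 1.31 and 1.30 for the latter. Both libraries with the added mutation were far closer to each other than those of other groups. The chi-square between replicates was 1.78 per gene there and 14.3 to 41.4 in the other 4 groups, and 93 genes differed over 2-fold between replicates against 918 in the CTCF mutant. If these libraries are 1 RNA sample sequenced again, n = 2 is 1 sample and p-values are too small, so counts with the libraries summed to 1 are given beside the list counts that this moves by over 1.5 times. The CTCF mutant also stood apart in RNA composition. Mitochondrially encoded transcripts took 34.6% and 24.2% of its assigned reads, against 8.67% and 8.80% with the added Su(Hw) mutation, where wild type had 14.2% and 14.6%. Reads that mapped to several places were 65.5% and 63.3% of all reads there, against 50.9% and 51.2%. Markers of the tissues of a larva were present in all 4 libraries, such as the fat body serum protein Lsp1gamma (23956 to 38236 CPM), the cuticle gene Lcp4 of the epidermis (5090.1 to 22365 CPM) and myosin heavy chain, Mhc (8354 to 10508 CPM). Among yolk protein genes of adult females, Yp1 had 1 read in all. Yp2 had 8 reads without the added mutation and 10 with it. Yp3 was clearly detected, with 820 reads without the added mutation and 233 with it, so these markers were not all absent.

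The su(Hw) transcript itself (FBgn0003567, dm6 3R, 14304455 to 14308589) was followed first, since by the labels its gene is mutated in 1 of the groups only. It had 21.7 and 20.7 CPM without the Su(Hw) mutation and 480 and 497 CPM with it. Both libraries with the mutation were far above both without it (log2 fold change 4.52, SE 0.22, edgeR adjusted p = 9.19e-07). The files give no base changes, so this is a difference of transcript level, and whether the reads come from the native gene or from a construct was not tested. Of the adjoining genes, red (3R, 14289071 to 14302276) rose (log2 fold change 0.78, adjusted p = 0.00215). Polr2I, an RNA polymerase subunit gene, did not pass the test (-0.31, adjusted p = 0.214). CG31321 (3R, 14310362 to 14314412) fell (log2 fold change -0.83, adjusted p = 0.00129). With scaling by library totals the direction for CG31321 turned, to a log2 fold change of 0.23.

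On the X chromosome a stretch from w to rst changed in both directions. The w gene (FBgn0003996; X, 2790599 to 2796466), an ABC transporter gene for eye pigment that is mutated in this strain and is a common transgene marker, rose from 0.289 and 0.253 CPM to 29.2 and 28.6 CPM. That is 2 reads against 614, or 107 times as many per library size (95% exact interval 29.5 to 887, counting error only). CG3588 (X, 2919770 to 2924426) went the other way, from 39.4 and 34.9 CPM to 0 and 0.0958 CPM. With 274 reads against 1 the scaled ratio was 785, with an exact 95% interval from 140 to 31109.8, and the gene had almost no reads in the CTCF Su(Hw) mutant where wild type had 191 and 235 CPM. CG14419 (X, 2885186 to 2885914) lost all of its 27 reads and was at least 25.8-fold lower with 3 reads over the group in place of 0 (adjusted p = 0.000451). CG3603 (X, 2948034 to 2949120) stood at 149 and 124 CPM and then at 29.8 and 30.6 CPM (log2 fold change -2.18, SE 0.15, adjusted p = 7.99e-06). The neighbour rst, a cell adhesion gene of the eye, rose slightly (0.66, adjusted p = 0.033), a call that was lost without either library of either group (adjusted p = 0.107 to 0.133) and without wild type 2 (0.0532).

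**Figure D1:**
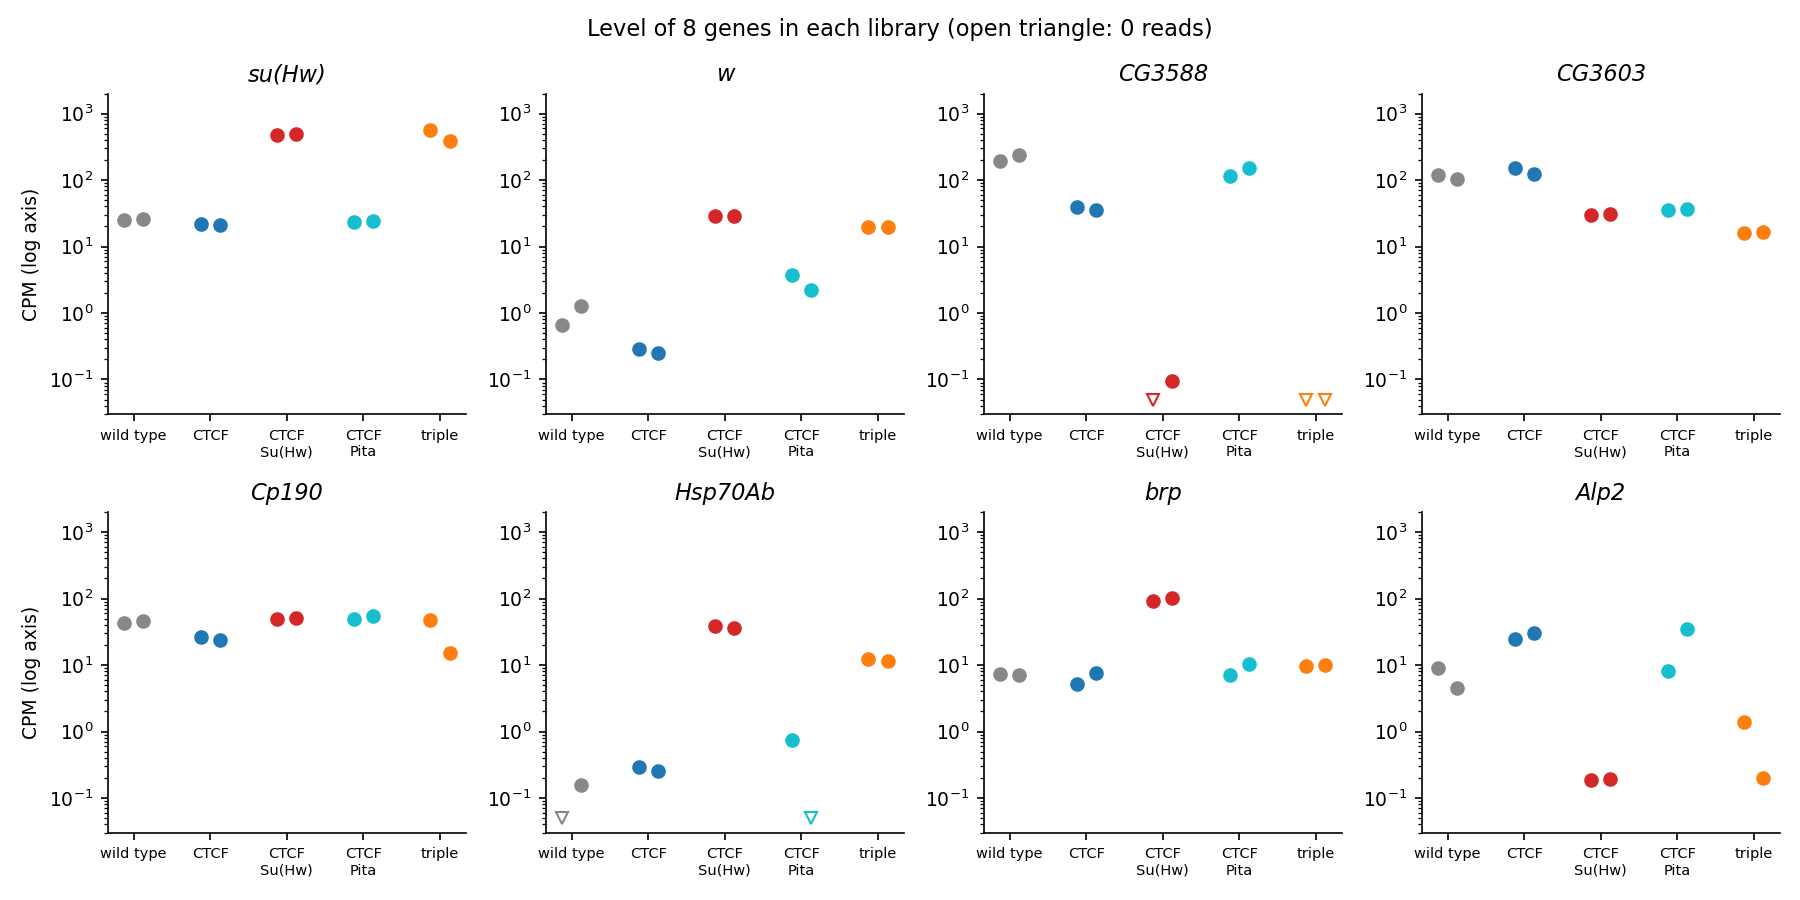
Level of 8 genes in each of the 10 libraries, in CPM on a log axis; each point is 1 library and open triangles mark libraries with 0 reads. The genes su(Hw) and w are high in the CTCF Su(Hw) and triple mutants, CG3588 is at 1 read or none in both, and brp is high in the CTCF Su(Hw) mutant alone (90.5 and 101 CPM against 5.21 to 10.4 in the other 8 libraries).

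Over all genes, 4385 of 10585 tested (41.4%) were called at an adjusted p below 0.05 in edgeR's quasi-likelihood test, 2121 higher (20.0%) and 2264 lower (21.4%). Of these, 1153 rose and 1201 fell over 2-fold, and 253 and 64 over 8-fold. The count of 253 includes genes without reads in the CTCF mutant, for which the fitted fold is not a measurement: of 119 such genes tested, 88 were called higher. With the CTCF Su(Hw) libraries summed the calls were 1130 higher and 1454 lower. Without CTCF 1 they were 966 and 1665, without CTCF 2 they were 1112 and 1795, without CTCF Su(Hw) 1 they were 1138 and 1439, and without CTCF Su(Hw) 2 they were 998 and 1357. Scaling mattered most. With library totals in place of TMM the median log2 fold change of all genes went from 0.06 to 1.12, and the calls were 6815 higher and 379 lower. Changes below are relative to the TMM scale, on which most genes centre near 0.

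The change also followed transcript length. Genes whose longest annotated transcript has at most 500 bases had a median log2 fold change of -0.90 and those over 6000 bases one of 0.62. In the shortest class 9.41% were called higher and 47.7% lower, and in the longest 52.9% and 0.919%. Across 10499 genes, which share all libraries and are not independent, Spearman's rho of log2 fold change with length was 0.396. When a smooth offset for length was fitted in each library, an alternative added after the data were seen, 1167 genes were called higher and 2336 lower. Counts under this offset are given beside the list counts that it moves by over 1.5 times. Whether the length trend reflects RNA quality was not tested.

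**Figure D2:**
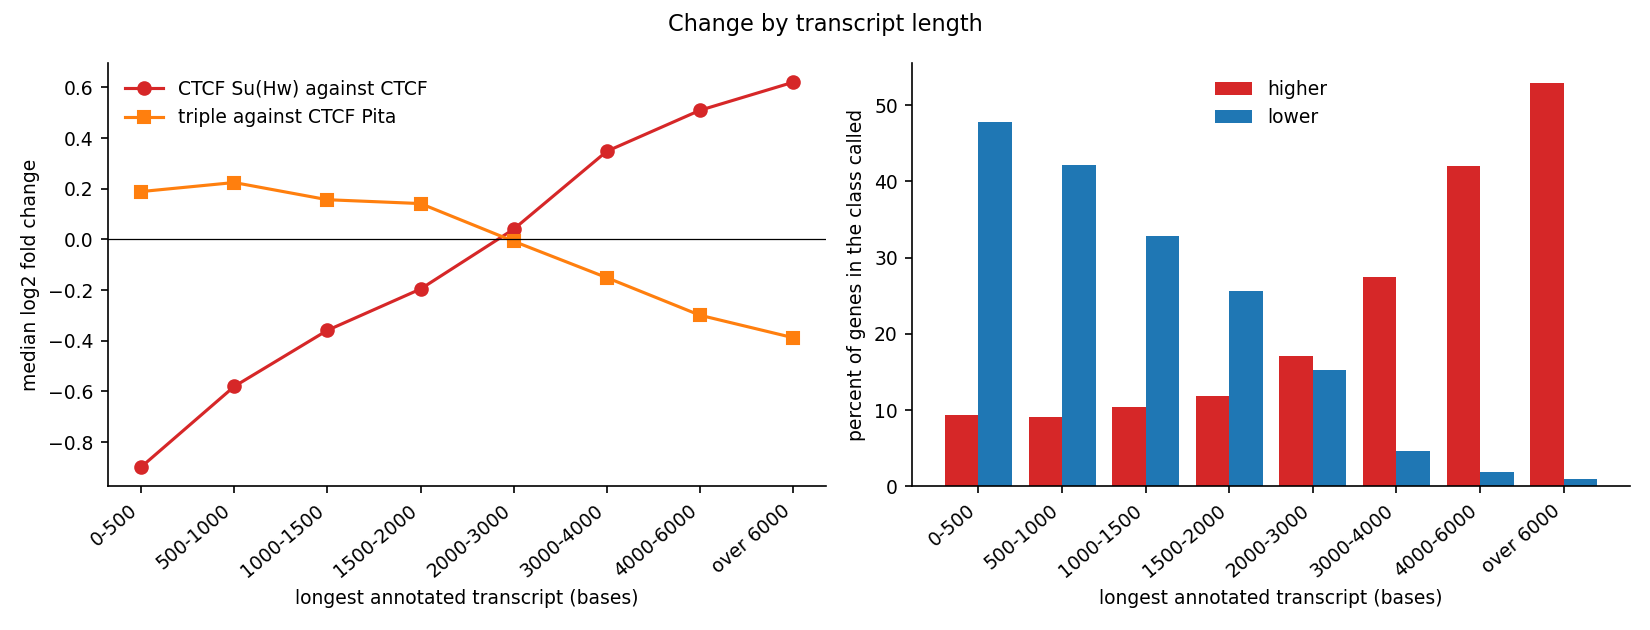
Change by length of the longest annotated transcript, in 8 classes (bases). The left panel gives the median log2 fold change of each class, which rises from -0.90 to 0.62 for CTCF Su(Hw) against CTCF and falls from 0.19 to -0.39 for triple against CTCF Pita. The right panel gives the percent of genes in each class called higher or lower in CTCF Su(Hw) against CTCF.

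Genes of mitochondrial respiration were lower from both genomes. All 12 mitochondrially encoded protein genes tested fell, with a median log2 fold change of -2.61 against 0.06 over all genes tested. The complex I subunit gene mt:ND2 went from 233 and 118 CPM to 7.14 and 9.19 CPM (-4.42, SE 0.58, adjusted p = 0.000255). The small ribosomal RNA of the mitochondrion, mt:srRNA, went from 17071 and 7415 CPM to 406 and 400 CPM. Both libraries of the CTCF Su(Hw) mutant were below both of the CTCF mutant in these 2 transcripts, and CTCF 1 was well above CTCF 2. Nuclear genes for subunits of the respiratory chain and ATP synthase fell in 65 of 78 and rose in 2 (1 with the CTCF Su(Hw) libraries summed and 4 with the length offset), with a median of -1.56. COX7C, a subunit of cytochrome c oxidase, went from 822 and 658 CPM to 148 and 148 CPM (-2.32, SE 0.23, adjusted p = 7.22e-05), and the complex I gene ND-B12 from 209 and 186 CPM to 40.7 and 40.4 CPM (-2.28, SE 0.20). The groups did not overlap in either gene. The members that rose were the paralogs COX4L (2.72) and ND-49L (1.49). COX4L lost its call without CTCF 1 (edgeR adjusted p = 0.0506). ND-49L lost its call without CTCF 2 or either CTCF Su(Hw) library (0.0977 to 0.265). In a whole larva, fewer cells of a type and less RNA per cell cannot be told apart, here or in any list below.

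Ribosomal protein genes were lower almost throughout. Of 89 cytosolic ribosomal protein genes tested, 81 fell and 0 rose, with a median log2 fold change of -1.49. RpL36 went from 3135 and 2204 CPM to 519 and 519 CPM (-2.36, SE 0.27, adjusted p = 0.00013), and RpL23 from 3271 and 2386 to 616 and 653 CPM (-2.16). Mitochondrial ribosomal protein genes fell in 58 of 70 and rose in 0 (median -1.02), for example mRpL42, with 37.6 and 42.7 against 8.99 and 9.38 CPM (-2.13). Short transcripts are common among these genes. With the length offset the cytosolic list was lower in 80, the mitochondrial list in 45 and the nuclear respiration list in 63. On library totals the medians were -0.41, 0.039 and -0.50, so the mitochondrial ribosomal list was not lower on that scale. Glycolysis genes fell in 11 of 13, such as Tpi, triosephosphate isomerase (2880.1 and 2460 against 868 and 858 CPM, -1.63, adjusted p = 0.000151), and Eno, enolase (-1.46). With the CTCF Su(Hw) libraries summed 7 fell, and without CTCF Su(Hw) 1 or CTCF Su(Hw) 2 the falls numbered 7 and 6. The hexokinase gene Hex-A was the one member that rose (1.52). The glycolysis median was -1.0, and 0.067 on library totals.

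Digestive protease genes of the gut fell in 21 of 26 and rose in 0 (median -1.82). Jon44E, a Jonah serine protease gene, went from 2088 and 1482 CPM to 217 and 214 CPM (-3.05, SE 0.37, adjusted p = 0.000167). The trypsin gene alphaTry (2R, 11344260 to 11345119) went from 704 and 311 CPM to 39.2 and 40.4 CPM (-3.67, SE 0.40). It lies in a run of 6 neighbouring trypsin genes, kappaTry to epsilonTry (2R, 11337797 to 11346066), that were all called lower. The level in wild type was 57.7 CPM on average for alphaTry, near that of the CTCF Su(Hw) mutant. The maltase and amylase list, which holds enzymes that digest sugars in the same organ, moved the other way, with 8 of 14 higher and 1 lower (median 0.94). Mal-A7 (2R, 8468646 to 8471663) rose from 1.16 and 0.506 CPM to 25.8 and 26.8 CPM (4.99, SE 0.40, adjusted p = 1.98e-05), Mal-A8 from 6.94 and 4.55 to 64.2 and 73.4 CPM (3.59), and Mal-A1 from 6.37 and 3.03 to 34.5 and 35.0 CPM (2.91). Amyrel, an amylase-related gene elsewhere on 2R, rose by 2.83 on the log2 scale, and the member that fell was Mal-A3 (-2.55). Leaving out a library of either group, or summing the CTCF Su(Hw) libraries, left 5 or 6 higher calls in this list.

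Cuticle protein genes fell in 36 of 65 and rose in 1, or 4 with the length offset and 2 without CTCF 2 (median -1.23, and -0.17 on library totals). Lcp65Ae (3L, 6137583 to 6138118) went from 227 and 266 CPM to 8.81 and 9.86 CPM (-4.72, SE 0.46, adjusted p = 6.62e-05). It opens a run of 7 neighbouring genes called lower (3L, 6137583 to 6155203) that holds 6 cuticle genes, Acp65Aa among them. Acp65Aa, a cuticle gene first described in adults, had 16.2 and 8.59 CPM and then 0.371 and 0.479 CPM (-4.80, SE 0.47). All 5 metallothionein genes tested fell (median -3.29). These encode small proteins that bind copper and other metals. MtnB went from 20.0 and 22.0 to 1.39 and 0.862 CPM (-4.20, adjusted p = 2.21e-05), MtnD from 51.2 and 48.8 to 5.10 and 5.08 CPM (-3.29), and MtnA from 870 and 959 to 209 and 203 CPM (-2.15). Ctr1B, a copper importer gene, also stood lower in both libraries, at 18.7 and 17.7 against 244 and 143 CPM (-3.40, SE 0.36, adjusted p = 9.19e-05). Glutathione S-transferases fell in 13 of 31 and rose in 0 (median -0.64, and 0.43 on library totals; 7 lower with the CTCF Su(Hw) libraries summed, 7 to 11 without 1 library of either group, and 3 higher and 10 lower with the length offset). Cytochrome P450 genes were called in 38.6%, near the 41.4% of all genes tested. They were mixed, 12 higher and 15 lower of 70 (median -0.13, and -0.12 with the CTCF Su(Hw) libraries summed). Among them Cyp6g1, a gene known from insecticide resistance, stood at 196 and 178 against 26.1 and 24.3 CPM (-2.89, SE 0.18, adjusted p = 2.52e-06).

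Heat-inducible chaperones rose in 12 of 14 and fell in 0, with a median log2 fold change of 2.89 (2.45 with a member without reads in the CTCF mutant, Hsp70Aa, at its bound). Hsp70Ab (3R, 11958535 to 11960909) went from 0.289 and 0.253 CPM to 38.7 and 35.5 CPM, which is 788 reads in place of 2 and a scaled ratio of 138 (95% interval 38 to 1138). Hsp70Bb went from 1.45 and 0 CPM to 42.8 and 58.2 CPM (6.19, SE 0.55, adjusted p = 6.35e-05). The Hsp70 copies are nearly identical, reads that mapped to several places were not counted, and their values per copy are uncertain. Chaperone genes with a unique sequence rose as well. Hsp26 went from 59.9 and 28.1 to 445 and 420 CPM (3.31, SE 0.63, adjusted p = 0.00204), Hsp68 from 67.1 and 61.4 to 371 and 348 CPM (2.48), the Hsp40 gene DnaJ-1 from 73.8 and 74.3 to 401 and 392 CPM (2.42), and Hsp83, which encodes Hsp90, from 673 and 833 to 2201 and 2165 CPM (1.54). None of these groups overlapped, and larvae of all groups were kept at 25 °C per the labels. Chaperone genes expressed without heat were called in 23.5%, below the 41.4% of all genes tested. Of 17 such genes 3 rose and 1 fell (median 0.08). With the CTCF Su(Hw) libraries summed these counts were 1 and 0, with the length offset 1 and 4, and without 1 library of either group at most 1 in each direction.

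**Figure D3:**
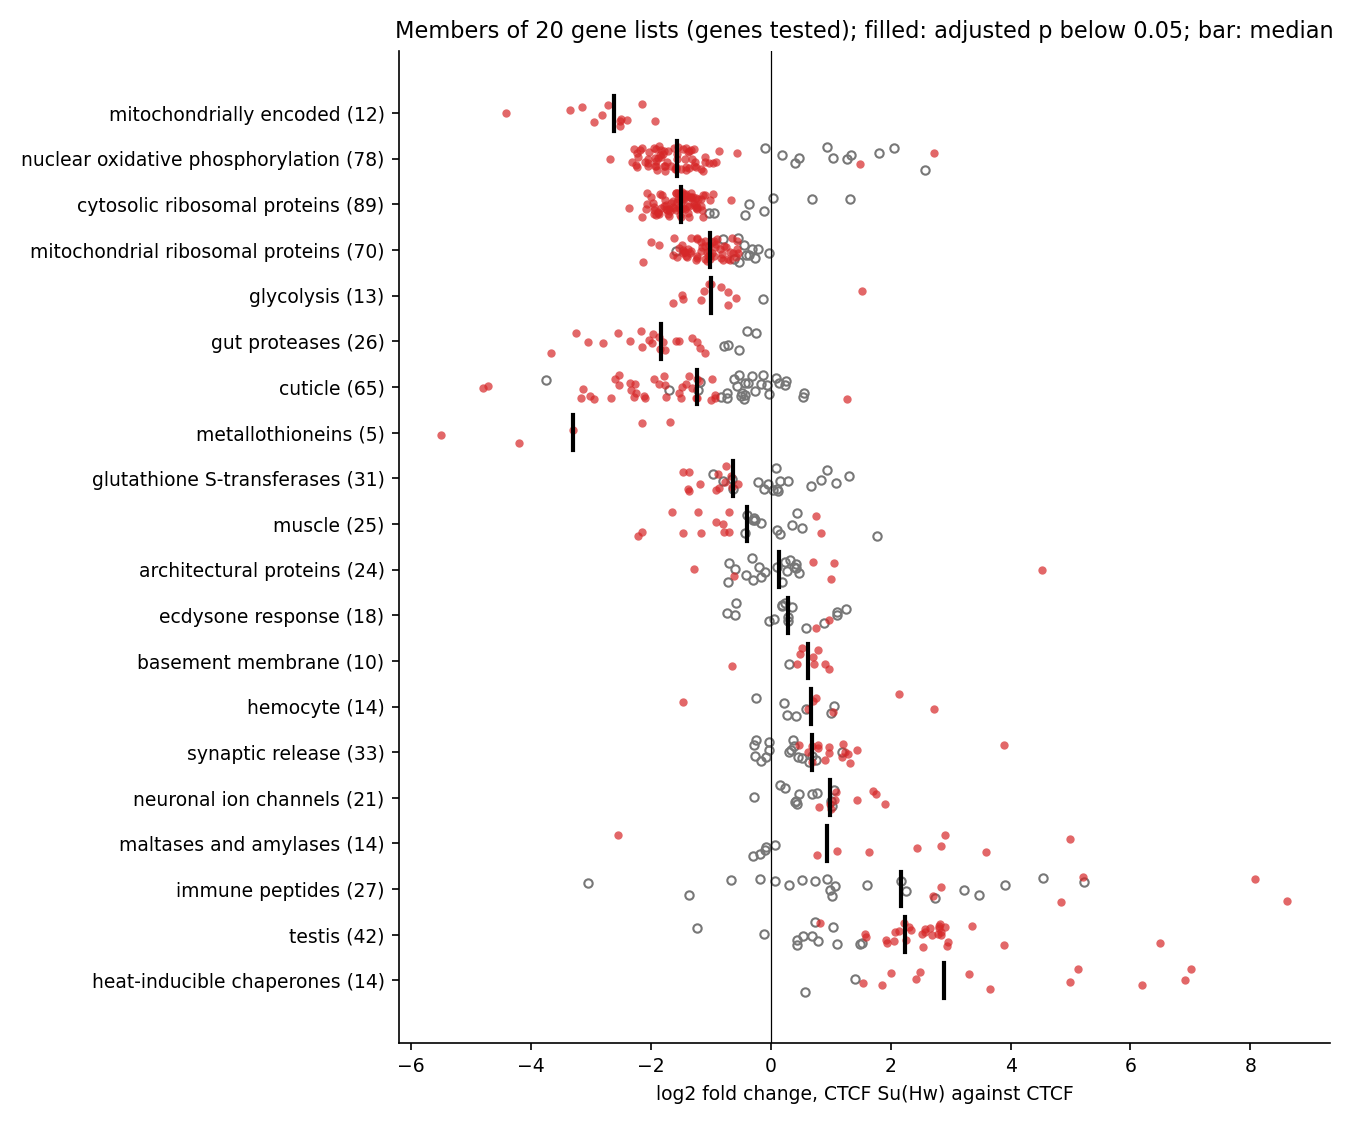
Log2 fold change of the tested members of 20 gene lists, CTCF Su(Hw) against CTCF, with the number tested in brackets. Filled points have an adjusted p below 0.05, open points do not, and the black bar is the median, which runs from -3.29 for metallothioneins to 2.89 for heat-inducible chaperones.

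Genes of spermatogenesis rose in 30 of 42 and fell in 0 (median 2.24). Their levels were low throughout: Mst84Dc, of the sperm tail, had 0.289 and 0.758 CPM against 3.89 and 4.69 CPM (2.96, SE 0.57, adjusted p = 0.00234), and betaTub85D, the tubulin of the male germline, had a mean of 2.71 ± 2.60 CPM against 18.3 ± 0.246 CPM (SD, n = 2 each; 2.69, edgeR adjusted p = 0.00125). For Mst98Cb 3 reads stood against 133, and the scaled ratio was 15.5 (95% interval 5.18 to 76.0). The list had 18 calls without CTCF 1 and without CTCF 2, and 21 with the CTCF Su(Hw) libraries summed, and 29 with the length offset. The mean log2 CPM of the list was 0.34 and 0.66 in CTCF libraries and 2.27 and 2.26 in CTCF Su(Hw) libraries. Wild type stood at 0.74 and 1.38, CTCF Pita libraries at 2.51 and 2.75 and triple libraries at 2.03 and 1.58. The labels give no sex, and the share of males in each library was not tested. Of 7 male dosage compensation genes tested, 2 rose and 1 fell (median 0.33), or 0 and 1 with the length offset. The share called in this list, 42.9%, was near the 41.4% of all genes tested. The 12 genes of the Y chromosome summed to 2.31 and 3.79 CPM in CTCF libraries and 4.45 and 4.12 CPM in CTCF Su(Hw) libraries. Neither of the roX RNAs, which coat the male X chromosome, was called higher. The level of lncRNA:roX1 was 339 and 422 against 207 and 247 CPM (-0.74, adjusted p = 0.185), and lncRNA:roX2 fell from 21.1 and 12.9 to 1.85 and 2.78 CPM (-2.86, adjusted p = 0.000851). Germline genes rose in 4 of 12, a count that was 1 with the CTCF Su(Hw) libraries summed, 1 with the length offset and 0 to 2 without 1 library of either group. The share called was 33.3%, below the 41.4% of all genes tested, and 33.3% were higher, against 20.0%.

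Among neuronal genes, brp and nAChRalpha7 rose most. The gene brp (2R, 9503765 to 9541565), which encodes the active zone protein Bruchpilot, went from 5.21 and 7.58 CPM to 90.5 and 101 CPM (3.89, SE 0.23, adjusted p = 2.47e-06). The acetylcholine receptor gene nAChRalpha7 (X, 19327075 to 19348447) had 0.868 and 2.78 against 23 and 25.1 CPM (3.67, SE 0.32, adjusted p = 3.59e-05). Both were near the level of the CTCF mutant in the other groups, at 7.20 and 1.52 CPM in wild type and 9.79 and 1.86 CPM in the triple mutant on average. Genes of synaptic release rose in 16 of 33 and fell in 0 (median 0.68), among them Syn, synapsin, with 3.18 and 2.78 against 7.14 and 9.10 CPM (1.44). Ion channel genes rose in 9 of 21 and fell in 0 (0.98), transmitter receptors rose in 9 of 32 and fell in 3 (0.55), and RNA-binding and axonal genes rose in 12 of 25 and fell in 1 (0.64), with tau at 6.08 and 6.32 against 20.1 and 19.9 CPM (1.69). In these 4 lists 48.5%, 42.9%, 37.5% and 52% were called, against 41.4% of all genes tested. The shares called higher were 48.5%, 42.9%, 28.1% and 48%, against 20.0%. Many of these transcripts are long, and with the length offset the counts were 4 higher and 4 lower, 0 and 2, 2 and 4, and 4 and 3 in the order given. With the CTCF Su(Hw) libraries summed, 9, 3, 4 and 6 were higher, and without 1 library of either group 5 to 12, 3 to 6, 2 to 5 and 4 to 7. The neuron marker elav (19.4 and 22.2 against 32.4 and 37.2 CPM, 0.74, adjusted p = 0.0113) lost its call without CTCF 1 (adjusted p = 0.109) and without CTCF Su(Hw) 2 (0.0907). The glial marker repo did not pass the test (-0.59, adjusted p = 0.336), and it had the lowest change of its list. Of 9 glial genes tested, 2 rose and 0 fell (22.2%, against 41.4% of all genes tested). Their median was 0.096, with 7 above 0. With the CTCF Su(Hw) libraries summed 1 rose, and with the length offset 0 were called. The serotonin receptor gene 5-HT2A (3R, 4612870 to 4633304) fell from 21.1 and 23 to 1.39 and 1.92 CPM (-3.73, SE 0.30, adjusted p = 1.98e-05), and Arc1, a gene for a capsid-forming protein of synapses, from 1284.5 and 1066 to 212 and 237 CPM (-2.39, SE 0.20).

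Antimicrobial and other immune peptide genes rose in 6 of 27 (22.2%, near the 20.0% of all genes tested) and fell in 0, with a median of 2.17 that is 1.03 with 5 members without reads in the CTCF mutant at their bound. BomS3 and BomS1, Bomanin genes, had 0 reads in the CTCF mutant against 141 and 97, at least 16.4-fold and 11.3-fold higher. CecC, a cecropin gene, had 4 reads against 339 (0 and 1.01 against 16.8 and 15.1 CPM), and AttB, an attacin gene, 2 against 226 (scaled ratio 39.5, 95% interval 10.8 to 328). The list had 2 calls without CTCF 1 and 2 without CTCF 2, and AttB and BomS3 were not called then (adjusted p = 0.0713 to 0.079). The peptidoglycan amidase gene PGRP-SC1b fell from 68.0 and 59.7 to 5.28 and 6.32 CPM (-3.46, adjusted p = 9.14e-05), a value that is uncertain because of its near copy PGRP-SC1a. Hemocyte genes rose in 6 of 14 and fell in 1, with 4 higher when the CTCF Su(Hw) libraries were summed, 3 without CTCF 2 or without CTCF Su(Hw) 2, and 3 higher and 2 lower with the length offset. The scavenger receptor gene Sr-CI rose (5.79 and 7.33 against 29.6 and 28.7 CPM, 2.14, adjusted p = 0.00317) and NimC1, of phagocytosis, fell (15.6 and 19.7 against 6.95 and 5.94 CPM, -1.46, adjusted p = 0.000307). Basement membrane genes rose in 8 of 10 and fell in 1, with 3 higher when the CTCF Su(Hw) libraries were summed, 3 to 7 without 1 library of either group and 0 with the length offset. Sarcomere genes fell in 11 of 25 and rose in 2 (median -0.40, and 0.64 on library totals; 7 lower and 0 higher with the CTCF Su(Hw) libraries summed or without CTCF Su(Hw) 2), with TpnC25D, a troponin C gene, at 204 and 202 against 46.2 and 41.5 CPM (-2.21, adjusted p = 6.35e-05).

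Markers of the timing of larval life did not move as a block. Against 41.4% of all genes tested, 11.1% of ecdysone response genes, 40% of glue genes and 55.6% of storage protein genes were called. Of 18 ecdysone response genes 2 rose and 0 fell (median 0.29), and of 10 salivary glue genes 2 rose and 2 fell, and of 9 storage protein genes 2 rose and 3 fell. With the CTCF Su(Hw) libraries summed the counts were 1 and 0, 1 and 2, and 1 and 2, and with the length offset 0 and 2, 1 and 2, and 1 and 5. The glue gene Sgs4 went from 26.0 and 16.4 to 153 and 156 CPM (2.87, adjusted p = 0.00319, and 0.0503 without CTCF 2). Fbp1, whose product takes storage proteins up into the fat body, went from 424 and 836 to 2668 and 2603 CPM (2.07, SE 0.41, adjusted p = 0.00271), while the storage protein genes Lsp1alpha (11046 and 10790 against 4397 and 4472 CPM, -1.30, adjusted p = 0.00231) and Lsp2 (-1.75) fell. Yp3, a yolk protein gene, went from 135 and 89.2 CPM to 10.5 and 11.5 CPM (-3.35, SE 0.36, adjusted p = 9.53e-05).

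Of 24 architectural protein genes, 4 rose and 2 fell (median 0.14, and -0.22 with the length offset), with 2 and 1 when the CTCF Su(Hw) libraries were summed and 1 and 3 with the length offset. Beside su(Hw) these were Cp190, CTCF and the cohesin gene SMC3 as higher, and BEAF-32 and e(y)2 as lower. BEAF-32 lost its call without CTCF 2 (edgeR adjusted p = 0.0565) and without CTCF Su(Hw) 2 (0.117). The share called in this list was 25%, below the 41.4% of all genes tested, and 16.7% were higher, against 20.0%. Cp190 had 26.0 and 23.8 against 49.1 and 50.6 CPM (1.00, SE 0.37, adjusted p = 0.0466). The call was lost without any 1 of the 8 libraries outside the triple mutant (adjusted p = 0.0571 to 0.209). CTCF had 8.10 and 5.56 against 11.1 and 11 CPM (0.71, SE 0.25, adjusted p = 0.0403), also lost without each of these 8 (adjusted p = 0.0524 to 0.303). SMC3 had 10.4 and 8.09 against 20.9 and 17.4 CPM (1.06, adjusted p = 0.00504, and 0.0645 without CTCF 2), and e(y)2, whose product binds Su(Hw) in Drosophila, had 12.7 and 8.59 against 4.45 and 4.21 CPM (-1.29, adjusted p = 0.00223). Neither mod(mdg4), the partner of Su(Hw) at the gypsy insulator (-0.16, adjusted p = 0.408), nor pita (-0.29, adjusted p = 0.368) passed the test. The y gene, in which gypsy insertions are a classic Su(Hw) target, had 12 reads against 5 (2.60 and 0.758 against 0.278 and 0.192 CPM, -2.71, adjusted p = 0.0294), and lost its call without CTCF 1 (adjusted p = 0.342) or either CTCF Su(Hw) library (0.1 and 0.139).

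The largest single changes were close to on and off. Among genes with a name that rose or fell most, LManIV, a lysosomal mannosidase gene, had 0 reads before and 187 after the Su(Hw) mutation was added (8.34 and 9.29 CPM), at least 21.8-fold higher. CG32845 (3L, 271420 to 273391) had 0 reads against 274, at least 31.9-fold higher, and lncRNA:CR45730 0 against 133, at least 15.5-fold higher. CG12506 (2L, 773547 to 774017) went from 0.579 and 2.02 to 78.4 and 79.6 CPM (5.86, SE 0.31, adjusted p = 1.2e-06). On the falling side, lncRNA:CR44316 (2R, 12320594 to 12320912) had 142 reads in the CTCF mutant and none after it, which is at least 136-fold lower. CG8834 (2R, 12420475 to 12422535) went from 400 and 203 to 1.02 and 1.15 CPM (-8.10, SE 0.64, adjusted p = 1.95e-05), and Alp2, an alkaline phosphatase gene (2R, 22206005 to 22207987), from 24.9 and 30.1 to 0.185 and 0.192 CPM (-7.07, SE 0.92, adjusted p = 0.000255). The gene apn, from 13.3 and 5.06 to 0.278 and 0.287 CPM, fell by 4.92. The transcription factor gene ss (3R, 16374434 to 16403690), spineless, which sets antennal and leg identity, went from 16.8 and 18.7 to 1.67 and 2.20 CPM (-3.19, SE 0.26, adjusted p = 2.02e-05), against 1.68 CPM on average in wild type.

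Called genes were spread over all chromosome arms. On the arms 2L, 2R, 3L, 3R and X, 18.5% to 22.4% of tested genes were higher and 19.8% to 24.4% lower. On the small chromosome 4, 16 of 77 were higher (20.8%) and 8 lower (10.4%), against 20.0% and 21.4% of all genes tested. Runs of at least 5 neighbouring tested genes called in 1 direction numbered 7 for higher and 15 for lower, and no test was made of these numbers. The longest higher runs held 6 genes, from Cyp4ac3 to lncRNA:CR45730 (2L, 5268498 to 5311223) and from CG4218 to CG42685 (2L, 14547498 to 14730177). Both end genes of the latter run rested on single libraries. CG4218 lost its call without CTCF 1, CTCF 2, CTCF Su(Hw) 1 or either CTCF Pita library (edgeR adjusted p = 0.0537 to 0.226). CG42685 lost its call without CTCF 1 or either CTCF Su(Hw) library (0.0622 to 0.119). The cuticle run on 3L and a run of ribosomal RNA pseudogenes on the X (23205822 to 23283731), where copies share reads, were the longest lower runs with 7 genes.

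The same Su(Hw) mutation was added a second time in the series, on larvae that carried the Pita mutation as well (triple against CTCF Pita). Both comparisons share the model of all 10 libraries, and no library stands in both contrasts. There 1773 genes were called (16.8%), 1045 higher (9.87%) and 728 lower (6.88%). Of the 2121 genes higher on the CTCF background, 155 (7.31%, and 14.8% of those higher in the second step) were called higher and 326 (15.4%) lower. Of the 2264 lower genes, 85 (3.75%, and 11.7% of those lower in the second step) were called lower and 412 (18.2%) higher. The sign was shared by 25.3% of the higher genes, where 49.0% of all genes tested were above 0 in the second step, and by 21.3% of the lower genes, where 51.0% were below 0. Across 10585 genes Pearson's r between both steps was -0.18 and Spearman's rho -0.42, a description over genes that share libraries within each step. The difference between the steps was itself tested and called for 4800 genes (45.3%). Of all genes tested, 2342 had a more positive change on the CTCF background (22.1%) and 2458 a more negative one (23.2%). With library totals these 2 counts were 6457 and 344, and with the length offset 1238 and 2502. The count of the second step depended on single libraries, with 639 without triple 2, 671 without CTCF Pita 1 and 2808 without triple 1.

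**Figure D4:**
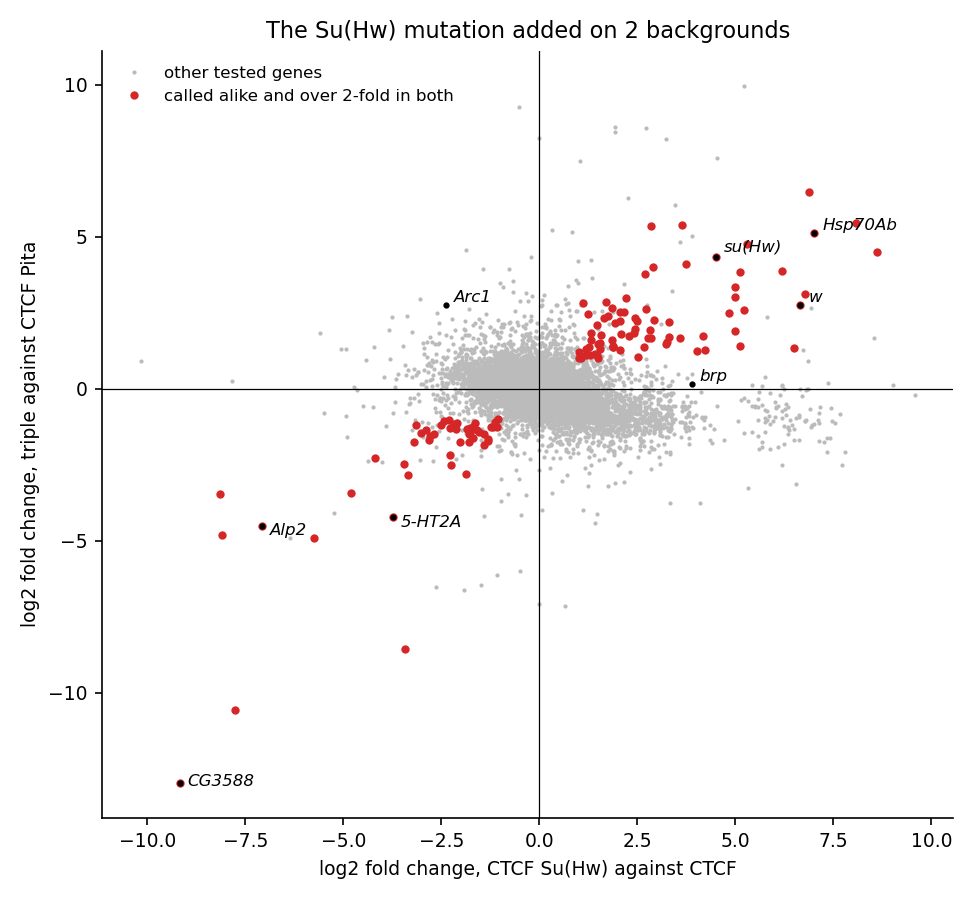
Log2 fold change of 10585 genes when the Su(Hw) mutation was added to the CTCF mutant (x axis) and to the CTCF Pita mutant (y axis). Red points are the 126 genes called in the same direction and over 2-fold in both, among them su(Hw) (4.52 and 4.33), and Arc1 lies in the opposite quadrant (-2.39 and 2.75).

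Of 10585 genes tested, 1153 were called higher and 1201 lower with a change over 2-fold in the first step, and 448 and 342 in the second. By a rule added after these values were seen, 126 genes were called in the same direction and changed over 2-fold in both steps, 76 higher and 50 lower. Whether this group of 126 is larger than the counts of each step alone would give was not tested. The group holds su(Hw) (4.52 and 4.33), w (6.66 and 2.76), CG3588, CG14419 and CG3603 of the X stretch, and heat shock genes such as Hsp68 (2.48 and 2.24), Hsp26 (3.31 and 2.19) and DnaJ-1 (2.42 and 1.82). It also holds the maltase genes Mal-A1 (2.91 and 4.01) and Mal-A6 (2.44 and 2.32), and neur, a ubiquitin ligase gene of the Notch pathway (2.77 and 1.67). The antisense RNA asRNA:CR31429, which lies within the span of neur, has its own count and was also higher in both steps. The strand of the reads of neur and asRNA:CR31429 is not known, since the unstranded counts were used. Lower in both were 5-HT2A (-3.73 and -4.23), Alp2 (-7.07 and -4.50), CG8834 (-8.10 and -4.81), Yp3 (-3.35 and -2.83), ss (-3.19 and -1.75), MtnB (-4.20 and -2.29), Cyp6g1 (-2.89 and -1.36), PGRP-SC1b (-3.46 and -2.46) and Lsp1alpha (-1.30 and -1.71). For heat-inducible chaperones the second step had 9 of 14 higher (median 2.22), for maltases 7 of 14 higher (1.13) and for immune peptides 25 of 27 higher (3.45).

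Several large groups that fell on the CTCF background did not fall as groups in the second step. There 8 of 89 cytosolic ribosomal protein genes were called higher and 0 lower (median 0.56), where 9.87% of all genes tested were higher. Nuclear respiration genes were lower in 2 of 78 (2.56%, against 6.88% of all genes tested; median 0.25). Of the 12 mitochondrially encoded genes 0 were called (median 0.62), and gut proteases rose in 15 of 26 and fell in 2 (median 1.21). Cuticle genes fell in 9 of 65 (13.8%, against 6.88% of all genes tested) and rose in 2 (median -0.14), with Acp65Aa lower in both steps (-4.80 and -3.41). Spermatogenesis genes, higher in the first step, were lower in 15 of 42 (35.7%, median -0.87), and synaptic release genes lower in 5 of 33 (15.2%), against the same 6.88%. The genes with a name and the smallest adjusted p for the difference were Arc1 (-2.39 against 2.75, adjusted p = 3.07e-06), fiz, an oxidoreductase gene (-1.38 against 1.75, 1.88e-05), brp (3.89 against 0.15, 8.81e-05), Seipin, of lipid droplets (-0.73 against 1.96, 8.81e-05), and Jon44E (-3.05 against 2.95, 9.35e-05). In the plot of list levels by library, the CTCF mutant and the CTCF Pita mutant, from which both steps start, stand far apart in several of these groups. For the cytosolic ribosomal list the mean log2 CPM was 10.2 and 10.1 in CTCF libraries, 9.06 and 8.97 in CTCF Pita libraries, and 8.76 and 8.75 in CTCF Su(Hw) libraries.

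**Figure D5:**
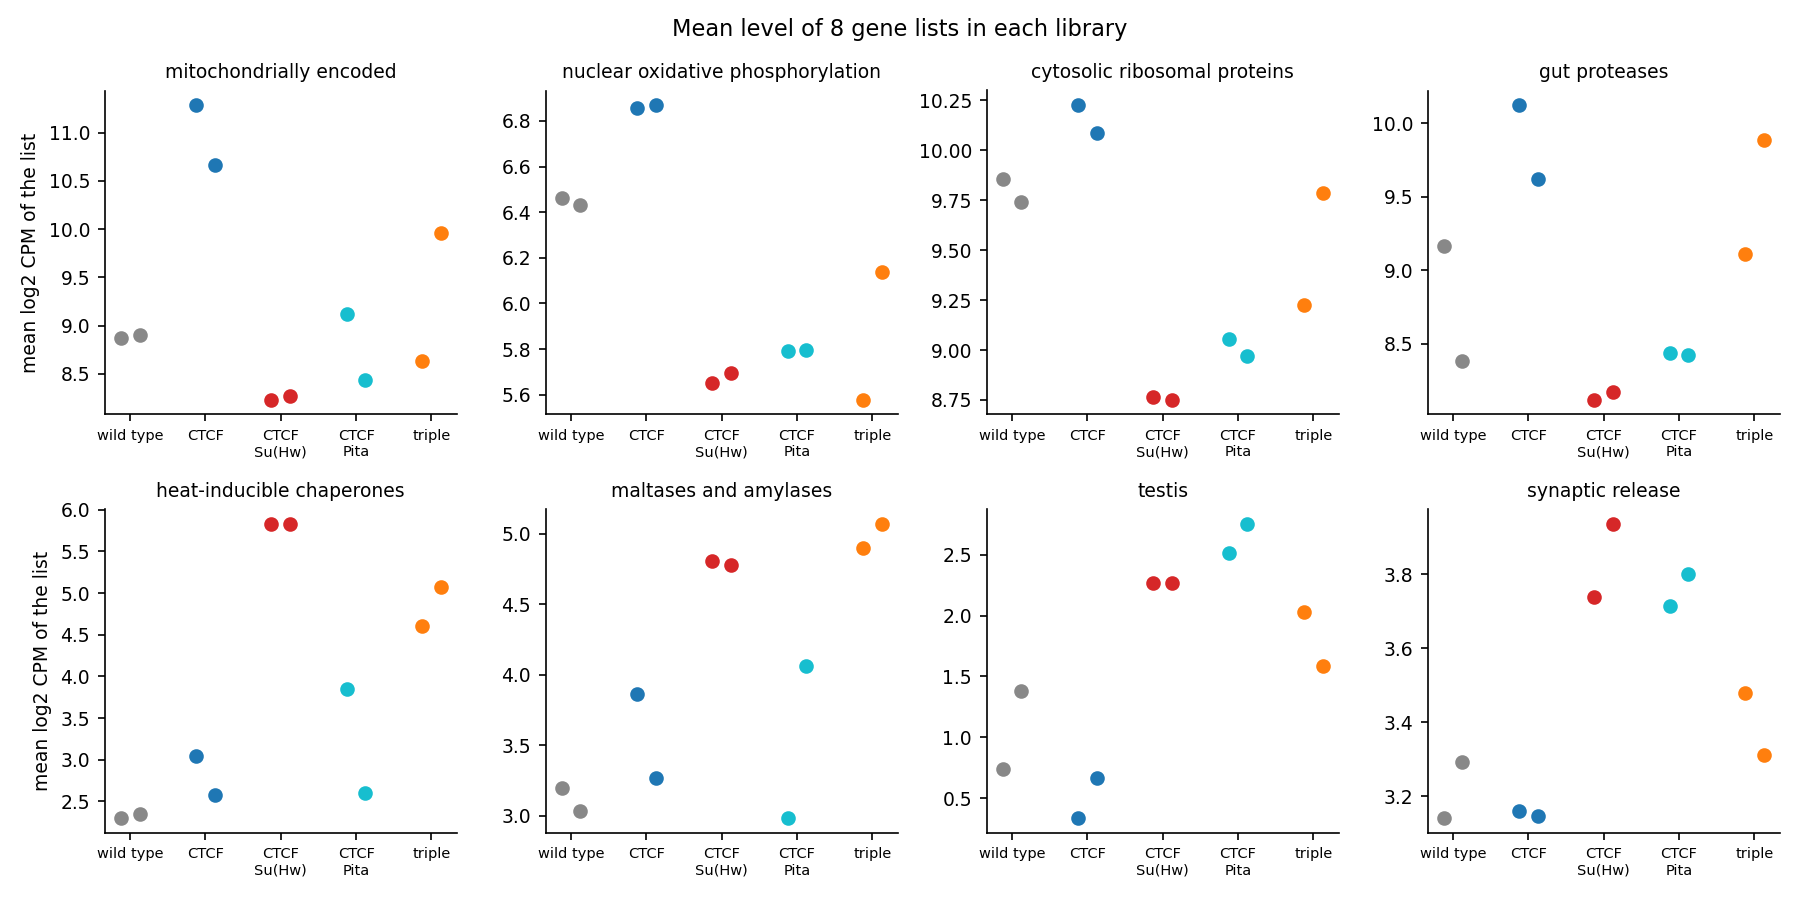
Mean log2 CPM of 8 gene lists in each of the 10 libraries; each point is 1 library and the vertical scale differs between panels. The CTCF mutant has the highest mitochondrially encoded, nuclear respiration and ribosomal levels of all groups and the lowest spermatogenesis levels, and heat-inducible chaperones are highest in the CTCF Su(Hw) mutant (5.83 and 5.83).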

How the data were processed

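RNA from 100 mg of whole larvae was poly(A)-selected from 50 ng of total RNA and sequenced as paired reads after 12 PCR cycles, per the labels' protocols. The authors deposited raw counts of reads per gene, in the layout of STAR's gene counts, for each library. STAR, cutadapt and dm6 are named in the submitters' processing notes, without versions or an annotation release. The unstranded column was used, so the strand of reads in overlapping and antisense genes is not known. Of all reads, 60.2% to 74.4% of each of the 4 libraries stand in lines that name no gene and were left out. Names came from the annotation for 17597 of 17735 identifiers.

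Counts were filtered with filterByExpr (10585 genes kept), scaled with TMM and tested two-sided by quasi-likelihood with edgeR 4.0.16 (R 4.3.3) in 1 model of 5 groups (5 residual degrees of freedom, biological coefficient of variation 15.9%), with Benjamini-Hochberg adjustment over all genes tested and a threshold of 0.05. The code was tested on simulated data. A single read is worth 0.0927 to 0.289 CPM in the 4 libraries, and 0 reads allow up to 3 reads, 0.278 to 0.868 CPM. For a group with 0 reads the fold is a bound with 3 reads over the group, and for 1 to 3 reads the ratio has an exact 95% interval. Intervals and bounds cover counting error only, and PCR copies are not independent molecules.

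Named genes were the 12 largest rises and 12 largest falls among called genes with groups that do not overlap and at least 5 CPM in the higher group, 3 placeholders in each direction, up to 4 called members of each list, the mutated and partner genes, members of the longest runs and the 5 with the smallest adjusted p for the difference between both Su(Hw) steps. The text describes part of these, and it adds cell type markers and genes near su(Hw) and w. The members and the gene lists were chosen with earlier results of these data known. Replicate numbers were not used as pairs (correlation of deviations between both groups -0.02). The CTCF Su(Hw) libraries differed by little more than counting error (chi-square 1.78 per gene), so this correlation cannot tell whether libraries were paired. Alternatives were RLE factors, library totals, mitochondrially encoded genes left out, other filters, DESeq2 1.42.0, the 4 libraries alone, a replicate block, the CTCF Su(Hw) libraries summed, a glue gene covariate, a minimum fold of 1.2, each library left out, and the length offset. No sequence is shown, and none was analysed here.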

Additional observations from a re-analysis of the deposited data

Results flagged for a closer look

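The effect of the Su(Hw) mutation differed between the CTCF background and the CTCF Pita background for 4800 of 10585 genes by the edgeR test of the difference itself, at an adjusted p below 0.05. Of the genes described above, 61 are among them. The count of 4800 was 3639 with DESeq2. With library totals 6457 genes had a more positive change on the CTCF background and 344 a more negative one, and with the length offset 1238 and 2502. Single genes were not followed through these alternatives for the difference. Differences below are the log2 fold change on the CTCF background minus that on the CTCF Pita background, with TMM scaling.

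The difference was 3.90 for w, 1.72 for Cp190, 1.64 for SMC3, -1.53 for e(y)2, -1.03 for CG3603, 1.09 for rst -0.92 for CG31321, 2.93 for CG4218 and 4.10 for CG42685. Among maltase and amylase genes it was 3.10 for Mal-A7, 1.93 for Mal-A8, 2.38 for Amyrel and -4.06 for Mal-A3. Among genes of neurons and of spermatogenesis it was 3.74 for brp, 4.09 for nAChRalpha7, 2.34 for Syn, 2.19 for tau, 1.82 for elav, -5.14 for Arc1, 4.29 for Mst84Dc, 5.15 for Mst98Cb and 3.28 for betaTub85D, and for lncRNA:roX2 it was -3.64.

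For respiration and ribosomes it was -5.38 for mt:ND2, -6.24 for mt:srRNA, -2.71 for COX7C, -2.68 for ND-B12, 3.75 for COX4L, 1.68 for ND-49L, -3.07 for RpL36, -2.88 for RpL23 and -2.49 for mRpL42. For glycolysis, gut and cuticle it was -2.04 for Tpi, -1.63 for Eno, 2.01 for Hex-A, -3.25 for alphaTry, -1.31 for kappaTry, -4.38 for epsilonTry, -6.00 for Jon44E, -1.97 for Lcp4 and -4.77 for Lcp65Ae. For metal handling it was -1.80 for MtnA, -1.91 for MtnB, -2.83 for MtnD and -3.87 for Ctr1B.

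It was also called for apn (-4.03), Cyp6g1 (-1.54), ss (-1.44), Fbp1 (2.78), Lsp2 (-1.60), Sgs4 (4.84), TpnC25D (-2.40), NimC1 (-2.10), fiz (-3.13), Seipin (-2.70), CG12506 (6.75), CG8834 (-3.28) and neur (1.10). For LManIV (8.88), CG32845 (9.77) and lncRNA:CR44316 (-11.06), which have a group with 0 reads, the fitted value depends on the prior count and is no measure of size.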

How the results depend on the processing

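Of 91 called genes described above, 68 kept their call and direction in each of the 22 alternatives that gave them a value. The 4385 calls became 7194 with library totals and 2584 with the CTCF Su(Hw) libraries summed, and 2355 to 4870 when 1 library was left out. The 1773 calls of the second step became 463 in its 4 libraries alone, 891 with the CTCF Su(Hw) libraries summed, 949 against a minimum fold of 1.2, and 639 to 2808 with 1 library left out. DESeq2 called 3258 and 1319. With the replicate block 4156 and 1505 genes were called, and none of the 91 lost its call. The labels do not say whether equal replicate numbers mark pairs. The correlation of deviations was -0.02 between the CTCF and CTCF Su(Hw) mutants and -0.11 between the CTCF Pita and triple mutants. The cause of these shifts was not tested.

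With library totals the log2 fold change turned to 0.80 for pita, 0.91 for mod(mdg4), 0.23 for CG31321, 0.77 for Polr2I, 0.48 for repo, 0.30 for lncRNA:roX1, 0.35 for Seipin, 0.45 for BEAF-32 and 0.50 for Lsp1gamma. The median turned to 0.40 for salivary glue, 0.56 for storage proteins, 0.93 for P450 genes, 0.43 for glutathione S-transferases, 0.039 for mitochondrial ribosomal proteins, 0.64 for muscle and 0.067 for glycolysis. With the length offset the log2 fold change turned to -0.50 for Mhc, and the median turned to -0.22 for architectural proteins, -0.041 for RNA-binding and axonal genes, -0.065 for glia, -0.22 for male dosage compensation, -0.038 for constitutive chaperones and -0.19 for ecdysone response. With 1 library left out pita ran from -0.64 to 0.067 and the median of constitutive chaperones from -0.080 to 0.16.

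Depth limits low genes most in the CTCF mutant, where 0 reads in a library allow up to 0.868 CPM.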
